A study of Mus musculus with 16 samples.

Results

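The genes described here carry sugar through the liver: they code for the enzymes of glycolysis, the pentose phosphate pathway and glycogen, with the transporters, inhibitors and the transcription factor that control them. A list of 42 gene symbols was looked up in the array's probe set annotation, and 37 were found among the 19935 genes measured. Pfkfb1, Gpi1, Eno1 and G6pdx were paired with no probe set here, and Gapdh was listed only on probe sets that also carry other symbols, so these 5 were not analysed. Where a gene had several probe sets, the brightest by mean over all arrays was used.

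RNA came from livers of male mice whose background was mixed Sv129/C57Bl/6, with 1 array per mouse, labelled as biological replicates. The 16 mice formed 4 groups: 3 knockout fasted, 4 knockout fed, 5 wild-type fasted and 4 wild-type fed. The knockout removes PPARβ/δ (Ppard), a nuclear receptor that responds to fatty acids; the wild-type mice carry the intact gene. Fasted mice had no food for 24 h, and mice of all groups were anaesthetized with isofluorane, nitrous oxide and oxygen before they were killed. The labels give neither age, nor the deleted stretch of Ppard, nor how the wild-type mice were related to the knockout line. The study text gives 4 to 5 mice per group, whereas 3 arrays are labelled knockout fasted.

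After a meal the liver takes up glucose, stores part of it as glycogen and sends part through glycolysis to pyruvate and on to fat, and the pentose phosphate pathway supplies the NADPH that fat synthesis needs. In fasting the liver reverses this and releases glucose, at first by breaking down glycogen. Control lies at a few committed steps, many of which use a form of the enzyme particular to the liver, and at the transcription factor ChREBP (Mlxipl), which senses sugar phosphates and binds a DNA element called the carbohydrate response element. The reversible steps between them are shared by most tissues.

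The element has its best known example in the gene of liver pyruvate kinase, Pklr, so the promoter letters of the genes discussed below are shown first. RefSeq windows of 300 bases (250 before and 50 after an annotated start, GRCm38.p6) existed for 35 of the 37 genes, 53 windows in all, and those of Gys2 and Ppp1r3b were missing. Both strands were searched for a carbohydrate response element spelled as CANGNG and CNCNTG with 5 bases between them, a pattern that reads the same on either strand. It stood in 3 of the 53 windows, of Pklr, Pfkfb2 and Gbe1, and in 183 of all 32851 windows (0.557%). Pklr has 2 windows, and only the one at chr3:89136373-89136672 (plus strand) holds the pattern, from base -170 to -154 relative to the start. In the sequences, capitals mark the fixed letters of the motif.

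Pklr: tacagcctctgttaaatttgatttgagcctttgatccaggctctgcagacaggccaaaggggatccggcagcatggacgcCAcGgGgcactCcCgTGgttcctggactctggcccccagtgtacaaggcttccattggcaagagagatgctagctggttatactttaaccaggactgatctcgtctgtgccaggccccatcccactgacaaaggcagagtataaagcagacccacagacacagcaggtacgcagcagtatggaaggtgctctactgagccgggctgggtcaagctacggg

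The matches of the other genes are given alone. That of Pfkfb2 lies from -113 to -97 in chr1:130715772-130716071 (minus strand), and that of Gbe1 from 8 to 24 after the start in chr16:70313699-70313998 (plus strand).

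Pfkfb2: CAgGaGcccgcCcCcTG

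Gbe1: CAgGgGccggcCcCgTG

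The E-box CACGTG, a shorter motif bound by many factors, stood in 8 of the 53 windows and in 2349 of all windows (7.15%). One of these is the window of Mlxipl itself, chr5:135089640-135089939 (plus strand), where it lies from -98 to -93. The other genes with it were Khk, Ldha, Pdk2, Pfkfb2, Pfkfb3, Pfkm and Ppp1r3c.

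Mlxipl: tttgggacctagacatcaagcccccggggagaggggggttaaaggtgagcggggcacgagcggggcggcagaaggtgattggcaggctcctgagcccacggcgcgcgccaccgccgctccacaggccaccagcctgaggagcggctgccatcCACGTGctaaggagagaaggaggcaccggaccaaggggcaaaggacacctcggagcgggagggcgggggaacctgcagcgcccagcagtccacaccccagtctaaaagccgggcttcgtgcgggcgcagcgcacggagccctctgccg

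The direct repeat of AGGTCA with 1 base between the copies, in the form bound by PPAR receptors with their partner RXR, was in 0 of the 53 windows and in 13 of all windows (0.0396%). The forkhead motif GTAAACA was in 1, that of Aldoc (3.65% of all windows), and the glucocorticoid element, spelled as AGAACA and TGTTCT with 3 bases between them, in 0 (0.00913%). A match describes letters in a window and shows no binding. The direct repeat and the glucocorticoid element were too rare over all windows for 0 of 53 to show anything about binding.

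Several mice stood apart by their markers. The summed linear intensity of 8 skeletal muscle genes was 958.7 in knockout fasted mouse 1, 568.5 in wild-type fed mouse 2 and 2324.8 in wild-type fed mouse 4, against 58.4 to 80.9 in the other 13 mice. The 18 acute-phase genes summed to 26753.9, 22417.6 and 37596.4 in knockout fed mice 1, 3 and 4, against 15554.8 to 20558.1 in the other 13. The 8 pancreas genes found summed to 388.8 in wild-type fasted mouse 5, against 58.6 to 86.4 in the other 15. All 10 hepatocyte markers were above the dim limit, the 40th percentile of gene means (log2 2.79), with sums of 32897.9 to 33692.4 in knockout fasted, 29653.9 to 34701.9 in knockout fed, 31324.4 to 33129.4 in wild-type fasted and 31233.1 to 33220.0 in wild-type fed mice. Kupffer cell genes (14) summed to 1188.4 to 1392.3 in knockout fasted mice, 1580.6 to 1857.0 in knockout fed mice, 727.9 to 1234.3 in wild-type fasted mice and 977.7 to 1167.8 in wild-type fed mice. The part of these cells in the results was not tested, and in whole liver fewer cells of a type and less RNA per cell cannot be told apart. Ppard averaged a log2 intensity of 4.48 in knockout fasted and 4.56 in wild-type fasted mice, and 4.71 in knockout fed and 5.10 in wild-type fed mice, and limma called neither difference (adjusted p = 0.908 fasted and 0.266 fed). Where the probes lie relative to the deletion is not given, so this is no check of the genotype labels.

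The 3 mice with muscle markers also read high for genes that muscle uses heavily, though Pfkm was the only one shown here without overlap. Pfkm, the muscle form of phosphofructokinase, read 6.20 in knockout fasted mouse 1 and 6.25 and 7.33 in wild-type fed mice 2 and 4, against 5.22 to 5.70 in the other 13 mice, with no overlap. Aldoa, the muscle form of aldolase, read 8.35 to 9.0 in the 3 mice and 7.60 to 8.51 in the others. Hk2, the hexokinase of muscle and fat, read 3.30 to 4.64 against 2.83 to 3.45. Pdk4 and Ppp1r3c, which liver and muscle both make, read 5.96 to 7.19 against 3.58 to 6.72 and 6.69 to 7.83 against 4.67 to 7.47. The main counts below are therefore also given without these 3 mice, a choice made after the data were seen.

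**Figure D1:**
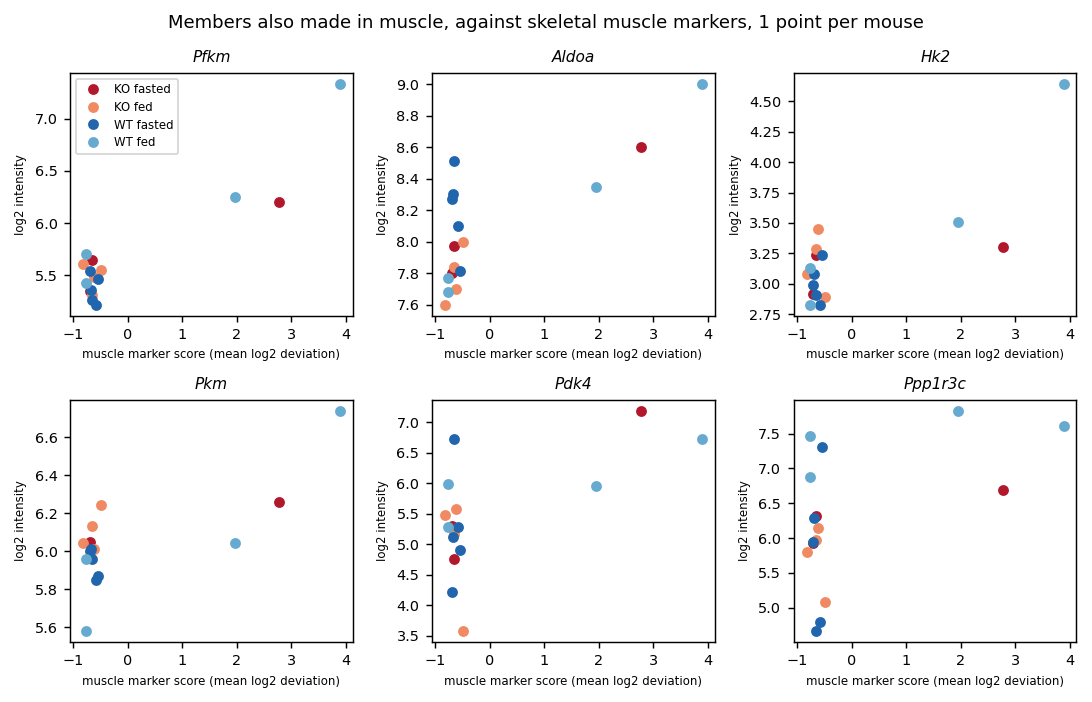
Log2 intensity (y axis) of Pfkm, Aldoa, Hk2, Pkm, Pdk4 and Ppp1r3c in each mouse against the mean log2 deviation of 8 skeletal muscle markers from their mean over all arrays (x axis), coloured by group. The 3 mice at the right, 1 knockout fasted and 2 wild-type fed, had Pfkm at 6.20 to 7.33 against 5.22 to 5.70 in the 13 others.

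The question of the feeding arm is how 24 h without food changed the sugar pathways in each genotype. In knockout mice fasting lowered 7 of the 37 genes and raised 0 (limma, adjusted p under 0.05; 18.9%, against 3.67% of all genes called, 1.80% lower and 1.87% higher). In wild-type mice 11 fell and 2 rose (35.1%, against 9.22% of all genes, 5.92% lower and 3.30% higher). All 7 genes called in knockout mice were among the 13 called in wild-type mice, which is 100% of the knockout and 53.8% of the wild-type calls, each with the same direction. They were Pklr of pyruvate kinase, Aldoc of aldolase, Pgd, Tkt and Taldo1 of the pentose phosphate pathway, and Gbe1 and Pygl of glycogen. Fasted and fed mice did not overlap in 10 of the 37 genes in each genotype (13.2% of all genes in knockout and 12.2% in wild-type mice). The 37 genes had a median log2 change of -0.03 in knockout mice and -0.21 in wild-type mice, against -0.02 and 0.02 over all genes. These medians were -0.10 and -0.13 without the 3 mice with muscle markers, where all genes had -0.02 and 0.03. Without the 3 mice with muscle markers, the knockout count stayed at 7 and the wild-type count was 7, with 6 genes lower and 1 higher. There Aldoc, Pgd, Tkt, Taldo1 and Pygl were called in both genotypes. Pklr and Gbe1 were called in knockout mice alone, and Gys2 and Mlxipl in wild-type mice alone. That fit called 343 of all 19935 genes in knockout and 958 in wild-type mice, against 732 and 1838 with all mice. Without knockout fed mice 1 and 4, the 2 knockout fed mice with the highest acute-phase sums, the knockout count was 4. There 218 of all genes were called on fasting in knockout mice.

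**Figure D2:**
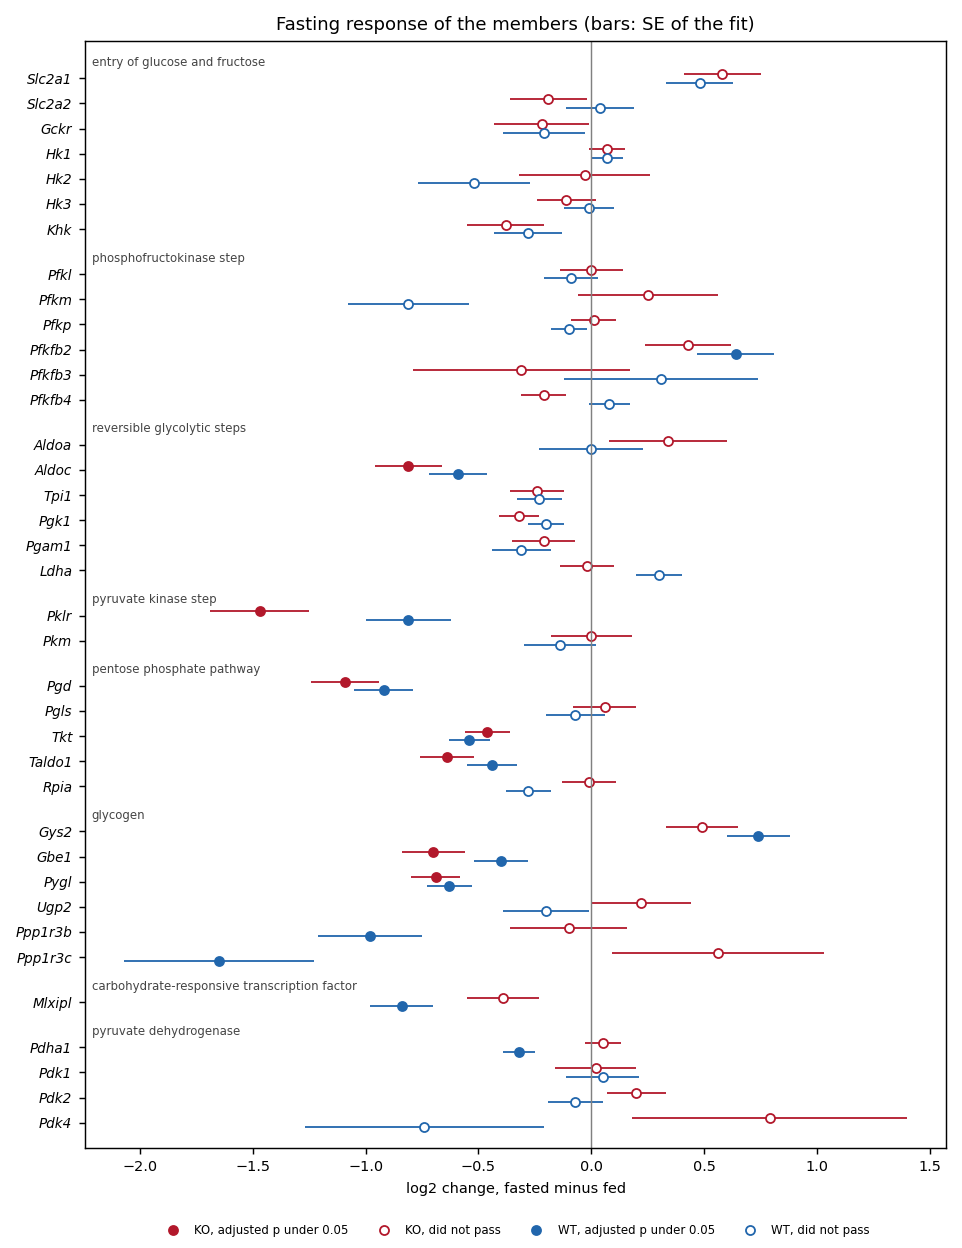
Log2 change on fasting (x axis, fasted minus fed, bars are the standard error of the limma fit) of the 37 genes, in order of role, in knockout and wild-type mice. Filled points have an adjusted p under 0.05: 7 in knockout mice, all lower, and 13 in wild-type mice, 11 lower and 2 higher.

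The first genes in the path bring glucose and fructose in. None of the 7 genes of this step was called in either genotype (limma; at an unadjusted p under 0.05, 2 in knockout and 1 in wild-type mice, where 15.3% and 22.6% of all genes were). Slc2a2, the main glucose transporter of liver cells, differed on fasting by -0.19 in knockout and 0.04 in wild-type mice, and Khk, which phosphorylates fructose, by -0.38 and -0.28 (adjusted p = 0.279 and 0.269). Slc2a1, a glucose transporter of most cell types, came nearest: every fasted mouse lay above every fed mouse in both genotypes, by 0.58 in knockout and 0.48 in wild-type mice (adjusted p = 0.0748 and 0.0577), although the gap between the wild-type groups was 0.00619. In wild-type mice it was called without wild-type fed mouse 1 (0.56, adjusted p = 0.0421) or 2 (0.58, adjusted p = 0.0317), after quantile normalization (0.56, adjusted p = 0.0296) and with dim genes left out (0.48, adjusted p = 0.0418).

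Gckr codes for the protein that holds the liver's glucose-phosphorylating kinase in the nucleus. It read 8.85, 8.82 and 8.76 in knockout fasted mice, against 8.91, 8.93, 9.34 and 8.92 in knockout fed mice. In wild-type mice it read 8.14, 9.10, 9.22, 8.83 and 9.39 when fasted, against 9.0, 9.21, 9.14 and 9.25 when fed. The knockout groups did not overlap, but the differences of -0.22 and -0.21 did not pass the test (adjusted p = 0.708 and 0.528). Hk1 is uncertain, since 16 further probe sets list it together with the ribosomal protein gene Rpl17, and the probe set used averaged 10.19 where the gene's second probe set averaged 3.00. Neither Hk2 nor Hk3, the hexokinase of white blood cells, was called.

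At phosphofructokinase, Pfkl, Pfkm and Pfkp code for the liver, muscle and platelet forms, and the Pfkfb genes for enzymes that make and break fructose 2,6-bisphosphate, the activator of glycolysis. None of the 6 genes found was called in knockout mice (limma; 1 at an unadjusted p under 0.05). In wild-type mice Pfkfb2, the heart form, rose. It read 6.58, 6.58 and 7.32 in knockout fasted mice, against 6.43, 5.86, 6.51 and 6.81 in knockout fed mice, and these groups overlapped. It read 7.16, 6.80, 6.72, 7.03 and 6.92 in wild-type fasted mice, against 6.30, 6.29, 6.26 and 6.28 in wild-type fed mice, with a wide gap between them. The change was 0.43 in knockout mice (adjusted p = 0.295) and 0.64 in wild-type mice, 1.56-fold (SE 0.17, adjusted p = 0.0234), and their difference did not pass (-0.21, 95% confidence interval -0.76 to 0.33, adjusted p = 0.748). The wild-type call was lost without the 3 mice with muscle markers (0.65, adjusted p = 0.126), and without wild-type fed mouse 2, 3 or 4 or wild-type fasted mouse 1 or 4 (0.58 to 0.64, adjusted p = 0.0514 to 0.0643). In wild-type mice Pfkm differed on fasting by -0.81 (adjusted p = 0.0758). Leaving out those with muscle markers made this -0.20 (adjusted p = 0.427). Without wild-type fed mouse 1 it was called, at -1.06 (adjusted p = 0.0196).

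Of the reversible steps of glycolysis, Aldoc was the gene that changed. Aldolase splits fructose 1,6-bisphosphate, and Aldoc is its brain form. It read 5.26, 4.79 and 4.96 in knockout fasted mice, against 5.61, 6.04, 5.94 and 5.65 in knockout fed mice. In wild-type mice it read 5.11, 4.66, 5.17, 5.16 and 5.00 when fasted, against 5.69, 5.55, 5.78 and 5.42 when fed. Every fasted mouse lay below every fed mouse of its genotype, with a log2 change of -0.81 in knockout (SE 0.15, adjusted p = 0.00506) and -0.59 in wild-type mice (SE 0.13, adjusted p = 0.00672). The call held without the mice with muscle markers (-0.71 in wild-type mice, adjusted p = 0.0147).

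The other 5 genes of these steps did not pass. Of all 6, 2 in knockout and 5 in wild-type mice had an unadjusted p under 0.05 (limma), as had 15.3% and 22.6% of all genes. Aldoa differed on fasting by 0.34 in knockout and -0.00 in wild-type mice (adjusted p = 0.615 and 0.994). Without the mice with muscle markers these were 0.10 and 0.47 (adjusted p = 0.885 and 0.11). Tpi1, Pgk1 and Pgam1, enzymes of the middle of glycolysis, differed on fasting by -0.24, -0.32 and -0.21 in knockout and by -0.23, -0.20 and -0.31 in wild-type mice. Pgk1 in knockout mice lay nearest the threshold (adjusted p = 0.0526) and was called at -0.35 without knockout fed mouse 3 (adjusted p = 0.0477); in wild-type mice it was called at -0.27 without wild-type fed mouse 1 (adjusted p = 0.0278). Ldha, which turns pyruvate into lactate, differed by -0.02 in knockout and 0.30 in wild-type mice (adjusted p = 0.976 and 0.0836), and the wild-type groups did not overlap. In wild-type mice it was called with array weights (0.32, adjusted p = 0.039), in a fit of the 2 groups alone (0.30, adjusted p = 0.0359) and without knockout fed mice 1 and 4 (0.30, adjusted p = 0.0288).

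Pyruvate kinase closes glycolysis. Pklr codes for the liver and red cell form and Pkm for the form of muscle and most other tissues. Pklr read 6.97, 6.69 and 6.88 in knockout fasted mice, against 8.06, 8.38, 8.64 and 8.17 in knockout fed mice. It read 7.96, 7.79, 8.05, 7.17 and 8.51 in wild-type fasted mice, against 8.94, 8.67, 8.71 and 8.49 in wild-type fed mice. All 3 knockout fasted mice lay below every other mouse of the study, while wild-type fasted mouse 5 lay just above the lowest wild-type fed mouse. Pklr fell to 36.2% of the fed level in knockout mice (-1.47, SE 0.22, adjusted p = 0.00125) and to 57.2% in wild-type mice (-0.81, SE 0.19, adjusted p = 0.0132). The wild-type value without the mice with muscle markers was -0.93 (adjusted p = 0.0542). The responses of the 2 genotypes differed by -0.66 (95% confidence interval -1.28 to -0.04), which did not pass after adjustment (adjusted p = 0.374).

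Pklr is also made in red cells, so their markers are given beside it. The 5 found summed to 176.5 to 230.9 in knockout fasted mice, 208.4 to 271.6 in knockout fed mice, 196.3 to 254.0 in wild-type fasted mice and 303.2 to 370.8 in wild-type fed mice, mostly from Alas2, the first enzyme of heme synthesis in red cells. Alas2 averaged 7.41 in knockout fasted and 7.68 in knockout fed mice, and 7.64 in wild-type fasted and 8.26 in wild-type fed mice. Of the other 4 genes, Slc4a1, Epb42 and Ermap averaged 3.00, 2.26 and 3.09 in wild-type fasted mice, against 2.84, 2.17 and 3.00 in wild-type fed mice, and Rhag 1.79 against 1.82. In knockout fasted mice Slc4a1, Epb42, Ermap and Rhag averaged 2.76, 2.28, 3.07 and 1.77. In knockout fed mice they averaged 3.08, 2.15, 3.09 and 1.80. Rhag and Epb42 lay under the dim limit in all groups, and Slc4a1 in knockout fasted mice. The part of red cells in the Pklr values was not tested. Pkm was not called, at 0.00 in knockout and -0.14 in wild-type mice.

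Mlxipl codes for ChREBP. It read 7.82, 7.64 and 7.25 in knockout fasted mice, against 7.90, 7.80, 8.17 and 7.97 in knockout fed mice, where the highest fasted mouse passed the lowest fed one. It read 7.02, 7.63, 7.64, 7.08 and 7.38 in wild-type fasted mice, against 8.22, 8.28, 8.12 and 8.12 in wild-type fed mice, far apart. The difference was -0.39 in knockout mice (adjusted p = 0.221), and in wild-type mice Mlxipl fell by 0.84 to 56% of the fed level (SE 0.14, adjusted p = 0.000923). It was also called without the mice with muscle markers (-0.82, adjusted p = 0.0164). The difference between the genotypes was 0.44 (95% confidence interval 0.00 to 0.89, adjusted p = 0.403) and did not pass.

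**Figure D3:**
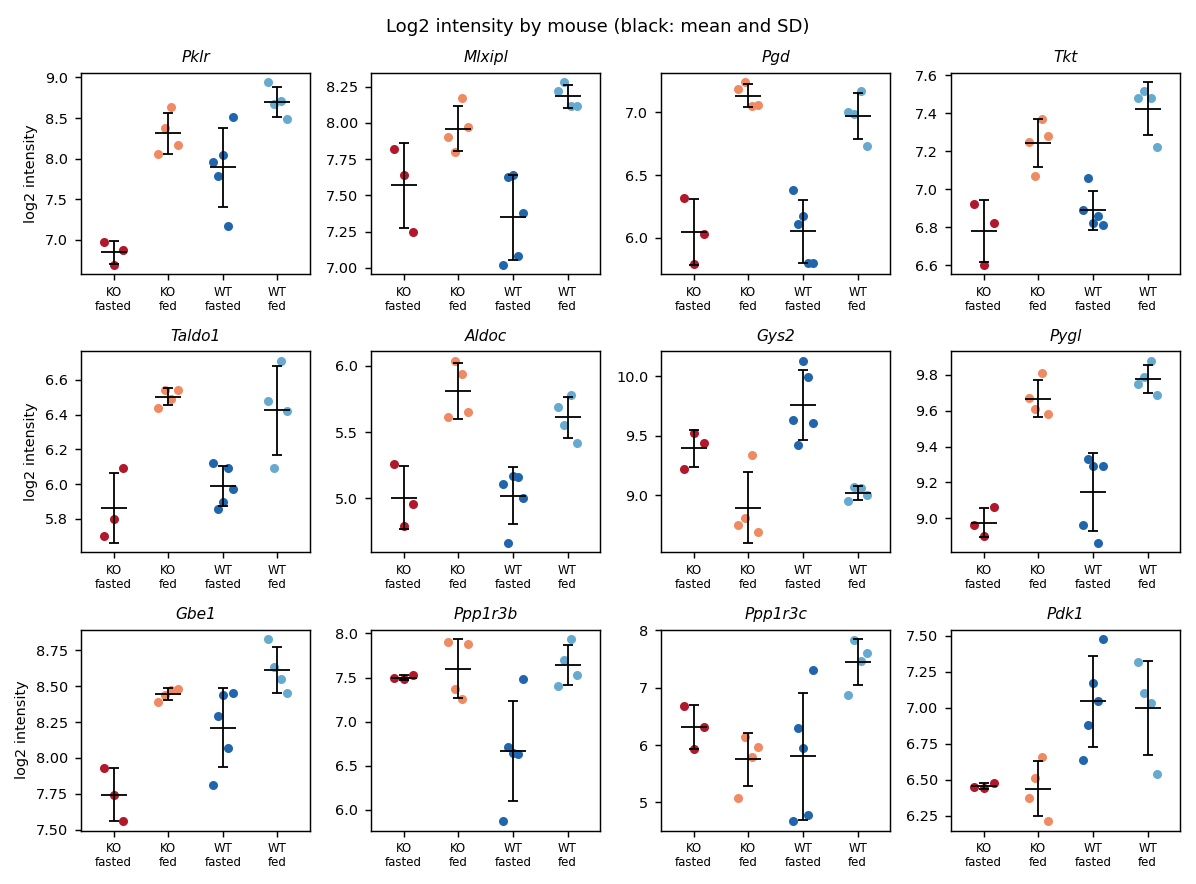
Log2 intensity (y axis) of 12 genes in each mouse, by group (x axis: knockout fasted, knockout fed, wild-type fasted, wild-type fed), with the mean and SD in black. The 3 knockout fasted mice had Pklr at 6.69 to 6.97, below all other mice, while Pgd and Aldoc separated fasted from fed mice in both genotypes.

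Of the 5 measured genes of the pentose phosphate pathway, 3 fell on fasting in knockout mice (1.80% of all genes did) and the same 3 fell in wild-type mice (5.92%). Pgd, the second NADPH-producing enzyme, read 6.32, 5.79 and 6.03 in knockout fasted mice, against 7.19, 7.24, 7.05 and 7.06 in knockout fed mice. It read 6.38, 6.11, 6.17, 5.80 and 5.80 in wild-type fasted mice, against 7.00, 6.99, 7.17 and 6.73 in wild-type fed mice. Fasted and fed mice did not overlap. Pgd fell to 47% of the fed level in knockout (-1.09, SE 0.15, adjusted p = 0.000535) and 52.9% in wild-type mice (-0.92, SE 0.13, adjusted p = 0.00024).

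Tkt and Taldo1 code for transketolase and transaldolase, which pass carbons between the pentose sugars and glycolysis. Tkt read 6.92, 6.60 and 6.82 in knockout fasted mice, against 7.25, 7.07, 7.37 and 7.28 in knockout fed mice. It read 6.89, 7.06, 6.82, 6.86 and 6.81 in wild-type fasted mice, against 7.48, 7.52, 7.48 and 7.22 in wild-type fed mice. Fasted and fed groups were apart in both genotypes, and Tkt fell by 0.46 in knockout (SE 0.10, adjusted p = 0.0157) and 0.54 in wild-type mice (SE 0.09, adjusted p = 0.000978). The knockout call was lost when knockout fasted mouse 2 was left out (-0.37, adjusted p = 0.109), when knockout fed mice 1 and 4 were (-0.44, adjusted p = 0.129), and in a fit of the 2 knockout groups alone (-0.46, adjusted p = 0.0687).

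Taldo1 read 5.70, 5.80 and 6.09 in knockout fasted mice, against 6.44, 6.54, 6.49 and 6.54 in knockout fed mice. It read 6.12, 5.86, 5.90, 6.09 and 5.97 in wild-type fasted mice, against 6.48, 6.09, 6.71 and 6.42 in wild-type fed mice. Only wild-type fed mouse 2 reached into the fasted range. Taldo1 fell by 0.64 in knockout (SE 0.12, adjusted p = 0.00729) and 0.44 in wild-type mice (SE 0.11, adjusted p = 0.015). With knockout fed mice 1 and 4 left out the knockout change was -0.65 (adjusted p = 0.0596), and with wild-type fed mouse 3 left out the wild-type change was -0.34 (adjusted p = 0.0685), so neither was called. Pgls and Rpia, the lactonase and the ribose isomerase of the pathway, differed by 0.06 and -0.01 in knockout and by -0.07 and -0.28 in wild-type mice and were not called. In wild-type mice Pgd, Tkt and Taldo1 were also called without the mice with muscle markers, at -1.03, -0.59 and -0.60 (adjusted p = 0.0015, 0.00555 and 0.006).

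Of the 6 glycogen genes, 2 fell on fasting in knockout mice, while 4 fell and 1 rose in wild-type mice (all genes: 1.80% lower in knockout, 5.92% lower and 3.30% higher in wild-type mice). In the fit that left out the mice with muscle markers, 2 fell in knockout mice, and 1 fell and 1 rose in wild-type mice. That fit called 343 of all genes in knockout and 958 in wild-type mice. Pygl, the liver phosphorylase that breaks glycogen down, read 8.96, 8.90 and 9.06 in knockout fasted mice, against 9.67, 9.61, 9.81 and 9.58 in knockout fed mice. It read 8.96, 9.33, 9.29, 8.86 and 9.29 in wild-type fasted mice, against 9.75, 9.79, 9.88 and 9.69 in wild-type fed mice. All fasted mice lay below all fed mice. Pygl fell by 0.69 in knockout (SE 0.11, adjusted p = 0.00209) and 0.63 in wild-type mice (SE 0.10, adjusted p = 0.000498). In wild-type mice without those with muscle markers it fell by 0.67 (adjusted p = 0.0108).

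Gys2, the liver glycogen synthase, went the other way. It read 9.22, 9.52 and 9.44 in knockout fasted mice, against 8.75, 8.81, 9.34 and 8.69 in knockout fed mice, where fed mouse 3 lay inside the fasted range. It read 9.63, 9.42, 10.13, 9.99 and 9.61 in wild-type fasted mice, against 8.95, 9.07, 9.06 and 9.0 in wild-type fed mice, which were apart. Gys2 rose 1.67-fold in wild-type mice (0.74, SE 0.14, adjusted p = 0.00339), also without the mice with muscle markers (0.75, adjusted p = 0.0396). The difference of 0.49 in knockout mice did not pass (adjusted p = 0.123), but it did at 0.64 without knockout fed mouse 3 (adjusted p = 0.0194). The responses of the genotypes differed by -0.24 (95% confidence interval -0.70 to 0.22, adjusted p = 0.652).

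Gbe1, the branching enzyme of glycogen, read 7.93, 7.74 and 7.56 in knockout fasted mice, against 8.39, 8.44, 8.47 and 8.48 in knockout fed mice. It read 7.81, 8.29, 8.44, 8.07 and 8.45 in wild-type fasted mice, against 8.83, 8.63, 8.55 and 8.45 in wild-type fed mice. The knockout groups were apart, and the wild-type groups touched at 8.45. Gbe1 fell by 0.70 in knockout (SE 0.14, adjusted p = 0.00882) and 0.40 in wild-type mice (SE 0.12, adjusted p = 0.0478). The knockout call was lost when knockout fasted mouse 3 was left out (-0.61, adjusted p = 0.0595), and when knockout fed mice 1 and 4 were (-0.71, adjusted p = 0.072). The wild-type call was lost without wild-type fed mouse 1, 2 or 3 or wild-type fasted mouse 1, 2 or 4 (-0.42 to -0.30, adjusted p = 0.0604 to 0.149), and without the mice with muscle markers (-0.48, adjusted p = 0.0988).

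Ppp1r3b and Ppp1r3c code for proteins that bring protein phosphatase 1 to glycogen, where it activates the synthase. Ppp1r3b read 7.49, 7.48 and 7.53 in knockout fasted mice, against 7.90, 7.37, 7.26 and 7.88 in knockout fed mice. It read 5.87, 6.71, 6.65, 6.63 and 7.48 in wild-type fasted mice, against 7.41, 7.70, 7.94 and 7.53 in wild-type fed mice. Apart from wild-type fasted mouse 5, whose pancreas markers were high, the wild-type fasted mice were lower than every other mouse. Ppp1r3b fell to 50.7% of the fed level in wild-type mice (-0.98, SE 0.23, adjusted p = 0.0104), with a difference of -0.10 in knockout mice (adjusted p = 0.922). The wild-type value was -1.01 (adjusted p = 0.0838) without the mice with muscle markers. The responses differed by 0.88 (95% confidence interval 0.16 to 1.60), which did not pass (adjusted p = 0.325).

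Ppp1r3c read 6.69, 5.93 and 6.32 in knockout fasted mice, against 5.08, 6.15, 5.80 and 5.97 in knockout fed mice. It read 4.67, 6.29, 5.95, 4.79 and 7.31 in wild-type fasted mice, against 6.88, 7.83, 7.47 and 7.61 in wild-type fed mice. Wild-type fed mice 2, 3 and 4 were higher than every mouse of the other groups, and the wild-type fasted mice were widely spread. Ppp1r3c fell to 31.9% of the fed level in wild-type mice (-1.65, SE 0.42, adjusted p = 0.0183), and differed by 0.56 in knockout mice (adjusted p = 0.655). The wild-type call was lost without wild-type fed mouse 2 (-1.52, adjusted p = 0.0578), wild-type fed mouse 3 (-1.64, adjusted p = 0.0507) or the mice with muscle markers (-1.37, adjusted p = 0.187), and with an intensity trend and robust variance in limma (-1.65, adjusted p = 0.0537). Its responses in the 2 genotypes differed more than those of any other of the 37 genes, by 2.21 (95% confidence interval 0.88 to 3.55), and did not pass after adjustment (adjusted p = 0.228). With the muscle-marker mice left out they differed by 1.75 (SE 0.79, adjusted p = 0.454). Ugp2, which makes the UDP-glucose for glycogen, was not called (0.22 in knockout and -0.20 in wild-type mice).

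Pyruvate dehydrogenase links glycolysis to the citric acid cycle, and the Pdk kinases switch it off. Pdha1, a catalytic subunit, fell in wild-type mice to 80.3% of the fed level (-0.32, SE 0.07, adjusted p = 0.00557), with 0.05 in knockout mice (adjusted p = 0.843) and a difference between the genotypes of 0.37 that did not pass (95% confidence interval 0.15 to 0.58, adjusted p = 0.214). With those that had muscle markers left out, the wild-type value was -0.28 (adjusted p = 0.0883).

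Pdk4 is the kinase that fasting raises in many tissues. It read 7.19, 5.30 and 4.75 in knockout fasted mice, against 3.58, 5.58, 5.47 and 5.17 in knockout fed mice. It read 6.72, 5.12, 4.22, 5.28 and 4.91 in wild-type fasted mice, against 5.28, 5.96, 5.98 and 6.73 in wild-type fed mice. Mice of 1 group were spread over more than the distance between groups, and the differences of 0.79 in knockout and -0.74 in wild-type mice did not pass (adjusted p = 0.609 and 0.436). With the mice that had muscle markers left out these were 0.07 and -0.38 (adjusted p = 0.982 and 0.775). Pdk2, a kinase form of the liver, differed by 0.20 and -0.07 and was not called.

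The regulated liver steps were then set beside the shared ones. On fasting in knockout mice, 2 of the 12 regulated genes fell, with a median log2 change of -0.14, against 4 of the 13 shared genes with a median of -0.21 (1.80% of all genes fell). In wild-type mice 5 regulated genes fell and 1 rose, with a median of -0.46, while 5 shared genes fell, with a median of -0.28 (5.92% of all genes fell and 3.30% rose). Leaving out the mice with muscle markers gave the same counts in knockout mice, and in wild-type mice 2 regulated genes lower and 1 higher and 3 shared genes lower. Of all genes, 343 were then called in knockout and 958 in wild-type mice. The difference between the medians, regulated minus shared, was 0.07 in knockout and -0.18 in wild-type mice. It was -0.04 in wild-type mice without those with muscle markers. Leaving out 1 mouse at a time gave -0.01 to 0.14 in knockout mice and -0.25 to -0.11 in wild-type mice. The negative knockout value was that without knockout fasted mouse 2. A regulated minus shared median taken in each mouse, from deviations of log2 intensity, had an SD of 0.16 within groups. That is a spread between mice and not the error of a difference between group means. The 12 forms chiefly of other tissues had medians of 0.01 and 0.02, with 1 lower in knockout mice and 1 lower and 1 higher in wild-type mice. The classes thus overlapped widely, with called and uncalled genes in each. Members and classes were chosen with earlier results of these data known, and no test of the classes was made.

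**Figure D4:**
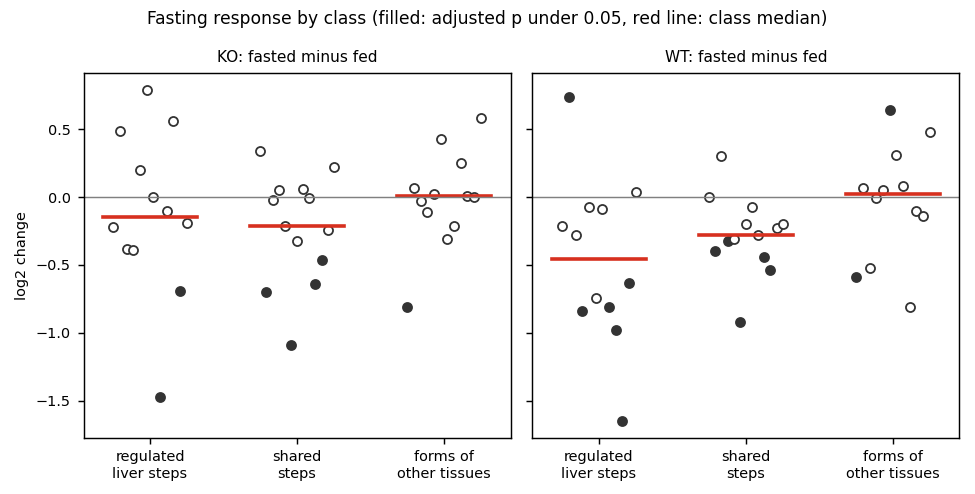
Log2 change on fasting (y axis, fasted minus fed) of each gene by class (x axis), in knockout mice on the left and wild-type mice on the right; filled points have an adjusted p under 0.05 and the red line is the class median. The medians of regulated and shared steps were -0.14 and -0.21 in knockout and -0.46 and -0.28 in wild-type mice.

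The question of the genotype arm is whether loss of PPARβ/δ moved these genes. In fed mice limma called 0 of the 37 genes (0.677% of all genes called; 6 at an unadjusted p under 0.05, as were 13.2% of all genes), and the median difference of knockout from wild-type was -0.11, against 0.01 over all genes. In fasted mice it called 1, Pklr, as lower (0.537% of all genes called, 0.186% lower). Averaged over both feeding states it called 2 as lower, Pklr and Pdk1 (1.55% of all genes called, 0.587% lower). No difference between the fasting responses was called (0.0100% of all genes; 7 of the 37 and 12.2% of all genes at an unadjusted p under 0.05). The 6 genes called on fasting in wild-type mice alone, Pfkfb2, Gys2, Ppp1r3b, Ppp1r3c, Mlxipl and Pdha1, had adjusted p of 0.214 to 0.748 for that difference. Without the mice with muscle markers the counts were 0 in fed mice and 0 in fasted mice. They were 1 over both states (Pdk1) and 0 for the fasting responses. Of all genes, that fit called 29, 34, 145 and 4, against 135, 107, 309 and 2 with all mice. Its median difference of the 37 genes in fed mice was -0.05, against 0.02 over all genes. Without knockout fed mice 1 and 4, the count over both states was 0, and 171 of all genes were called.

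**Figure D5:**
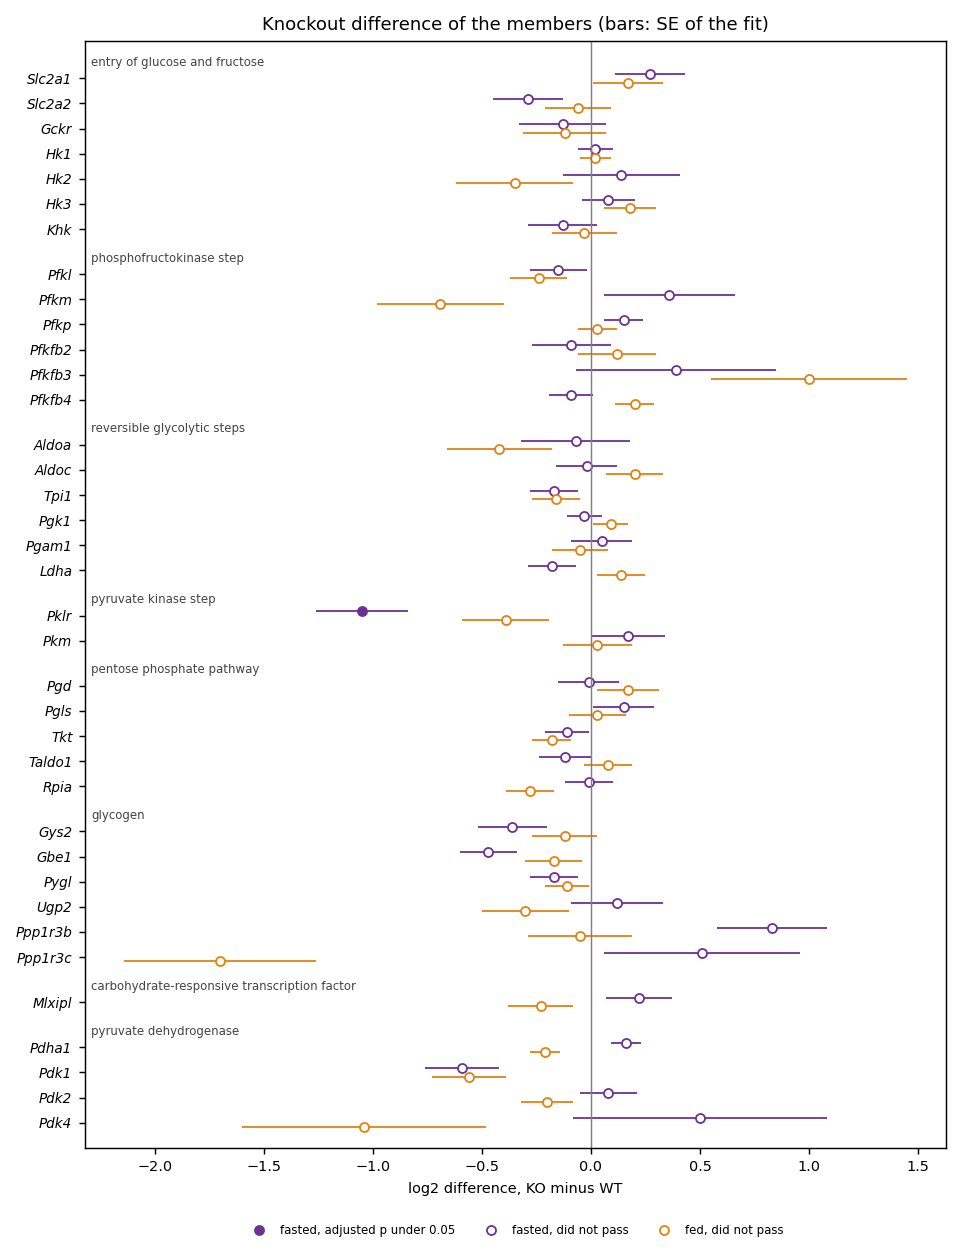
Log2 difference of knockout from wild-type (x axis, knockout minus wild-type, bars are the standard error of the limma fit) of the 37 genes in fasted and in fed mice. The filled point is Pklr in fasted mice at -1.05; the widest difference in fed mice is that of Ppp1r3c at -1.70, which did not pass.

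Pklr in knockout fasted mice was at 48.2% of wild-type fasted mice (-1.05, SE 0.21, adjusted p = 0.0321), and all 3 knockout values, 6.69 to 6.97, lay below all 5 wild-type values, 7.17 to 8.51. In fed mice the difference was -0.39 (adjusted p = 0.43), and the mean over both states was -0.72 (SE 0.15, adjusted p = 0.0173). Leaving out any 1 mouse gave the fasted difference as -1.23 to -0.90. The call was lost without any 1 of the 3 knockout fasted mice or without wild-type fasted mouse 1, 2, 3 or 5, with adjusted p of 0.0506 to 0.181. Without the mice with muscle markers it was -1.11 (adjusted p = 0.119). The mean over both states was not called when knockout fasted mouse 2 (-0.68, adjusted p = 0.0612), the mice with muscle markers (-0.81, adjusted p = 0.0674) or knockout fed mice 1 and 4 (-0.62, adjusted p = 0.105) were left out.

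Pdk1, a pyruvate dehydrogenase kinase that low oxygen raises, read 6.45, 6.44 and 6.48 in knockout fasted mice, against 6.64, 6.88, 7.17, 7.05 and 7.48 in wild-type fasted mice. It read 6.37, 6.51, 6.66 and 6.21 in knockout fed mice, against 7.32, 7.10, 7.03 and 6.54 in wild-type fed mice. Within a feeding state, only wild-type fed mouse 4 reached into the knockout range. Over both feeding states Pdk1 fell to 67.2% of wild-type (-0.57, SE 0.12, adjusted p = 0.0212), and was -0.66 without the mice with muscle markers (adjusted p = 0.035). By feeding state the differences were -0.59 in fasted and -0.56 in fed mice, and neither passed (adjusted p = 0.183 and 0.144). The call over both states was lost without any 1 of the 3 knockout fasted mice (-0.58 to -0.57, adjusted p = 0.0506 to 0.0601) and when knockout fed mice 1 and 4 were left out (-0.50, adjusted p = 0.117).

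The widest knockout difference in fed mice was that of Ppp1r3c, at -1.70 (SE 0.44, adjusted p = 0.0867), where all 4 knockout values, 5.08 to 6.15, lay below all 4 wild-type values, 6.88 to 7.83. It was -1.43 (adjusted p = 0.358) without the mice with muscle markers. Only 2 of the 37 genes had fed groups that did not overlap, Ppp1r3c and Pdha1 (6.70% of all genes). Pfkfb3, the inducible form of the fructose 2,6-bisphosphate enzyme, read 6.90, 3.96, 5.14 and 6.24 in knockout fed mice, against 5.14, 4.44, 4.47 and 4.17 in wild-type fed mice. Its highest values were those of mice 1 and 4, whose acute-phase sums were highest, and the difference of 1.00 did not pass (adjusted p = 0.344). It was -0.01 without mice 1 and 4, and without knockout fed mouse 2 it was called at 1.54 (adjusted p = 0.0484).

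In fasted mice 4 of the 37 genes had groups that did not overlap (8.25% of all genes): Pklr and Pdk1, lower in knockout mice, and Ppp1r3b and Pkm, higher. Overlap was judged on unrounded values, and Ppp1r3b and Pkm were separated by gaps of 0.00876 and 0.00301 only. The second probe set of Pkm did overlap, at 5.14 to 5.83 in knockout fasted and 5.33 to 5.64 in wild-type fasted mice. It differed by 0.04, where the probe set used differed by 0.17. Ppp1r3b was 0.83 higher in knockout fasted than wild-type fasted mice (SE 0.25, adjusted p = 0.187) and was called at 1.04 without wild-type fasted mouse 5 (adjusted p = 0.043). Gbe1 differed by -0.47 (adjusted p = 0.162) and was called at -0.57 without wild-type fasted mouse 1 (adjusted p = 0.0332); over both states it was called at -0.37 without that mouse (adjusted p = 0.0209). Mlxipl, Gys2 and Gckr had no called knockout difference.

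Of 49 further genes of these pathways, 46 were measured. On fasting in knockout mice 1 rose, Pdpr, a regulator of the phosphatase that switches pyruvate dehydrogenase on (0.50, adjusted p = 0.0187), and 1 fell, Tkfc, which phosphorylates the glyceraldehyde made from fructose (-0.75, adjusted p = 0.00482), which is 4.35% against 3.67% of all genes. In wild-type mice 1 rose, the phosphoglucomutase gene Pgm1 (0.35, adjusted p = 0.00272), and 5 fell, 13% in all against 9.22% of all genes. The widest falls were those of Gyg, which primes new glycogen (-0.53, adjusted p = 0.0281), and of Phkb and Phka1, subunits of the kinase that activates phosphorylase (-0.50 and -0.41, adjusted p = 0.00943 and 0.031). The 46 genes had a median of 0.04 in knockout and -0.03 in wild-type mice. With the muscle-marker mice left out these medians were -0.03 and 0.04.

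Without the mice with muscle markers 1 gene was called on fasting in each genotype (of all genes, 343 in knockout and 958 in wild-type mice). In knockout mice this was Tkfc (-0.70, adjusted p = 0.0409), while Pdpr was not called (0.46, adjusted p = 0.126). In wild-type mice it was Rpe, the ribulose phosphate epimerase, named after its values were seen (-0.42, adjusted p = 0.0335). Pgm1 was not called there (0.33, adjusted p = 0.0582), nor were Gyg, Phkb and Phka1 (-0.33, -0.48 and -0.36, adjusted p = 0.243, 0.101 and 0.188). Tkfc was also lower in knockout fasted than wild-type fasted mice (-0.78, adjusted p = 0.0109; -0.72 without the mice with muscle markers, adjusted p = 0.0868). Over both feeding states 3 were lower in knockout mice: Stbd1, a glycogen-binding protein (-0.45, adjusted p = 0.0264), Tkfc (-0.37, adjusted p = 0.0458) and Pgm1 (-0.21, adjusted p = 0.041), 6.52% against 1.55% of all genes. With the muscle-marker mice left out Stbd1 was called (-0.58, adjusted p = 0.015), and Tkfc and Pgm1 were not (-0.38 and -0.22, adjusted p = 0.175 and 0.204). In fed mice limma called 0 of the 46 (8 at an unadjusted p under 0.05, as were 13.2% of all genes).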

How the data were processed

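Liver RNA of 16 mice was hybridised to Affymetrix whole-transcript arrays. The deposited values were probe set intensities on a linear scale; per the submitters' processing notes the authors normalized them with RMA, of unstated version, and no build of the array is stated. Array medians were 8.08 to 8.61, and log2 was taken here. Of 35519 probe sets, 21780 carried 1 gene symbol, 1605 several and 12134 none; those with 1 symbol gave 19935 genes, each by its brightest probe set.

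The 4 group means were fitted to all 16 arrays together with limma 3.58.1 in R 4.3.3 (lmFit, eBayes, 12 residual and 4.55 prior degrees of freedom). The 6 contrasts were fasting in each genotype, knockout in each feeding state, the mean of these, and the difference between the fasting responses. Tests were two-sided, with Benjamini-Hochberg adjustment over all genes, and calls were made at an adjusted p under 0.05. Values are log2 intensities, changes are log2 differences with the standard error of the fit, and the number of arrays limits their precision. Levels of different probe sets are not comparable. The fit was tested on simulated data with known changes. Changes of 0.5 were called in 30% of cases for the difference between fasting responses, and in 38% to 74% for the other contrasts. Changes of 1 were called in 82% and in 96% to 100%. Of the calls, 2.86% to 8.7% were false, depending on the contrast.

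Values of every array are printed for members changed by at least 0.5 in a called contrast and for Pklr, Mlxipl, Gys2, Gckr and Pdk4; of the further pathway genes, up to 3 called each way per contrast are named. Pfkfb3 and the muscle genes were chosen after their values were seen. Members, classes, lists and markers were chosen with earlier results of these data known. Of the gene identifiers, 21689 matched RefSeq, and 0 symbols were updated. Same-numbered mice of different groups did not deviate together (correlations of -0.22 to 0.21 over 21 pairs, 5 above 0.1), so numbers were not taken as pairs. Alternatives were quantile normalization, centring, a filter on dim genes, the median over probe sets, a variance trend, array weights, a replicate block, a fit of the 2 groups alone, and leaving out mice.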

Additional observations from a re-analysis of the deposited data

Results flagged for a closer look

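Of 111 groups of 4 or 5 values of the 37 genes, 6 held a mouse far from the others of its group by Dixon's test (5.41%; chance gives about 1 in 20). Gckr was 9.34 in knockout fed mouse 3, against 8.91 to 8.93 in the other knockout fed mice. Pfkl was 6.29 in wild-type fasted mouse 3, against 5.87 to 5.97, and 6.01 in knockout fed mouse 1, against 5.78 to 5.81. Pfkp was 2.96 in knockout fed mouse 3, below the 3.16 to 3.19 of its group. Pfkfb4, whose mean was under the dim limit, was 2.28 in wild-type fed mouse 4, below 2.51 in each of the others. Tkt was 7.22 in wild-type fed mouse 4, the mouse with the highest muscle marker sum, below the 7.48 to 7.52 of its group.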

How the results depend on the processing

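No called gene changed sign under any alternative run. Of the genes called on fasting, 4 of 7 in knockout and 6 of 13 in wild-type mice were called under every alternative; of the calls by genotype, 0 of 1 in fasted mice and 0 of 2 over both states. Leaving out 1 mouse at a time gave 6 to 9 genes for fasting in knockout mice, 9 to 15 in wild-type mice, 0 to 1 for knockout in fed mice, 0 to 1 in fasted mice, 0 to 3 over both states and 0 for the difference between fasting responses. Without the mice with muscle markers, chosen after seeing the data, the counts were 7 for fasting in wild-type mice, 0 for knockout in fasted mice and 1 over both states. Of all genes, 958, 34 and 145 were called there. Without knockout fed mice 1 and 4 the counts were 4 for fasting in knockout mice and 0 for knockout over both states (of all genes, 218 and 171). A fit of the 2 groups alone gave 0 for knockout in fasted mice and 1 in fed mice, Ppp1r3c (-1.70, adjusted p = 0.0215); it ended the calls of Tkt on fasting in knockout mice and Gbe1 in wild-type mice (-0.40, adjusted p = 0.0918) and added Ldha in wild-type mice. The replicate block likewise gave 1 in fed mice, Ppp1r3c (-1.70, adjusted p = 0.026), and ended the call of Gbe1 on fasting in wild-type mice (-0.46, adjusted p = 0.0508). Quantile normalization ended the calls of Taldo1 (-0.36, adjusted p = 0.0588) and Gbe1 (-0.38, adjusted p = 0.0715) on fasting in wild-type mice. The cause of these shifts was not tested. Where mice were left out, the values used and the number of mice changed together and cannot be told apart. Pfkfb4 lay under the dim limit, so its values carry little signal over background. Hk3, Pfkp and Hk2 averaged 3.02, 3.07 and 3.21 over all arrays, little above the limit of 2.79.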
